A study of Mus musculus with 24 samples.

Results

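The hypothalamic expression of 10 astrocyte and tanycyte genes was described in overfed and control mice: Fabp7, Gfap, Aqp4, Slc1a2, Slc1a3, Aldh1l1, Gja1, Vim, Nes and Col23a1. The genes were chosen by symbol out of the 55471 genes counted, and Fabp7 leads the group because the study names it among the genes lower on d14. Fabp7 was thus selected on the d14 comparison of these same mice, so the d14 values are given as a description without a test, and tests were made in the mice killed 3 days later. The 10 genes were chosen with earlier results of these data known, so the d14+3 tests may not be free of that choice. All 10 genes were among the 18992 that passed the expression filter, and the lowest count of any of them in a used library was 137 (Nes). All mice were 18-week-old chow-fed wild-type C57BL/6J males carrying a gastric tube. ExpOF mice received a sucrose-supplemented liquid diet through it in excess of their needs for 14 days, and Control mice received sterile water at the same flow. Hypothalami were taken at the end of overfeeding (d14) or after 3 days of recovery (d14+3), during which both groups received sterile water, with 6 mice in each of the 4 groups. The mice came in a July and a September cohort, 3 per group in each.

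Astrocytes clear glutamate, buffer water and ions and supply lipids and lactate to neurons, and tanycytes are the elongated glial cells that line the floor of the third ventricle and send processes into the arcuate nucleus and median eminence. Tanycytes keep features of embryonic radial glia, among them the intermediate filaments vimentin and nestin and the brain fatty acid binding protein FABP7. FABP7 carries long-chain and polyunsaturated fatty acids inside astrocytes, tanycytes and neural progenitors. The genes therefore mark overlapping sets of glia, and several of them (Vim and Nes in vessels, for example) are also used by other cells.

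The library of Control d14 replicate 4 was left out, because the methods of the study drop a Control d14 mouse for poor RNA. The labels do not mark that mouse, and it was identified from the mean expression over libraries in the study's supplement, which the deposited counts give when this library is dropped. It stood apart also in the levels of the genes described here (Fabp7 at 89.2 CPM, Aqp4 at 26.8 CPM), although its labelled RNA integrity number (RIN) is 9.8. The other 23 libraries held between 8928182 and 34848437 counts. RIN ranged from 8.8 to 10 in ExpOF d14+3 and from 7.2 to 9.9 in Control d14+3, where the 3 values under 8 all belong to the second extraction round. Hypothalamic neurons and glia were both present by their markers. The 10 neuron markers summed to between 4459 and 5214 CPM and 30 further astrocyte genes to between 14680 and 17640 CPM. A list of 16 further tanycyte genes summed to between 292 and 384 CPM. Of this sum, Col25a1 averaged 137.8 CPM in Control d14+3 and the tanycyte factor Rax only 0.89 CPM. Choroid plexus genes ranged from 73.0 to 3112 CPM in sum, and 2 pituitary genes ranged from 1.56 to 96.5 CPM. The part of these neighbouring tissues in the results was not tested. In bulk tissue, fewer cells of a type and less RNA per cell cannot be told apart.

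Fabp7 lies on mouse chromosome 10 (mm10, 57784881 to 57788450, plus strand), with 1250 exonic bases, and no other annotated gene overlaps it. Nes (chromosome 3, 87971078 to 87980451, plus strand) has 6416 exonic bases and Vim (chromosome 2, 13573927 to 13582826, plus strand) has 4743, and neither of them overlaps another gene. Slc1a2 and Aldh1l1 share exonic bases with a gene on the other strand, and Aldh1l1 also with 1 on its own strand, so their counts are less certain, as no source used here states how strand was handled in counting. RefSeq (GRCm38.p6) promoter windows of 250 bases before and 50 after the start were on hand for 9 of the 10 genes. The windows of Fabp7 and Nes are shown because these genes had the smallest p-values on d14+3. Capitals mark matches, on either strand, to 4 motifs of factors tied to Fabp7 or to radial glia, namely RBPJ of the Notch pathway (TGGGAA), the NFI half-site (TTGGC), the nuclear receptor half-site (AGGTCA) and the POU octamer (ATTTGCAT). No match overlaps another in these windows.
Fabp7, chr10:57784673-57784972, plus strand: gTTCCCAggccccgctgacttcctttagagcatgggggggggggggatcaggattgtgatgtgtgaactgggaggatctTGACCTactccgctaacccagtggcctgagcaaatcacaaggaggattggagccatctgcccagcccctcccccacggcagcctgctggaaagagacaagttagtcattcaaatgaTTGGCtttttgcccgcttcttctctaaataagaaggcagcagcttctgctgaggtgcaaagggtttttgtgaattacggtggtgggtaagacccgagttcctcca
Nes, chr3:87970843-87971142, plus strand: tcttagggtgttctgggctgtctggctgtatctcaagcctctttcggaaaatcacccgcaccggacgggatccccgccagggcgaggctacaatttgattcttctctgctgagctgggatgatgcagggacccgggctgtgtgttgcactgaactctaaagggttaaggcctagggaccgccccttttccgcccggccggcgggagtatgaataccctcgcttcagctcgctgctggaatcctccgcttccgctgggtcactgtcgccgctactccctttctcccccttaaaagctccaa

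The Fabp7 window held 1 match each to the RBPJ, NFI and nuclear receptor motifs and 0 to the octamer, and the Nes window held 0 matches to any of them. These letters are common: 25.6% of 32851 promoter windows held the RBPJ letters, 46.7% the NFI half-site, 16.3% the nuclear receptor half-site and 1.74% the octamer. Gfap and Aldh1l1 each carried an RBPJ and a nuclear receptor match, Vim carried 2 NFI half-sites, and Slc1a3 and Gja1 carried no match. A match describes the letters only, and binding was not measured.

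Per kilobase of exon, the glutamate transporters ranked first. Slc1a2 (GLT-1, the main glutamate transporter of astrocytes) averaged 91.3 ± 9.87 RPKM (SD, n = 23) and Slc1a3 (GLAST, the transporter shared with radial glia and tanycytes) 83.4 ± 6.78. Their spreads overlap, and the difference between the 2 genes within libraries was not tested. Gfap, the astrocyte intermediate filament, followed at 46.5 ± 5.61 RPKM, and Fabp7 came next at 32.1 ± 8.40 RPKM. Gja1 (connexin 43, which joins astrocytes by gap junctions) at 21.4 ± 1.44, Aldh1l1 (a folate enzyme widely used as an astrocyte marker) at 19.0 ± 2.02 and Aqp4 (the water channel of astrocyte endfeet) at 18.0 ± 2.34 RPKM formed a group with overlapping spreads. Vim reached 9.92 ± 2.01 RPKM, and the lowest levels were those of Col23a1 (a transmembrane collagen found in some tanycytes) at 4.48 ± 0.702 and Nes at 2.56 ± 0.272 RPKM. Within the groups, the coefficient of variation of CPM reached 21.3% for Fabp7 and 25.6% for Vim, the highest of the 10.

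**Figure D1:**
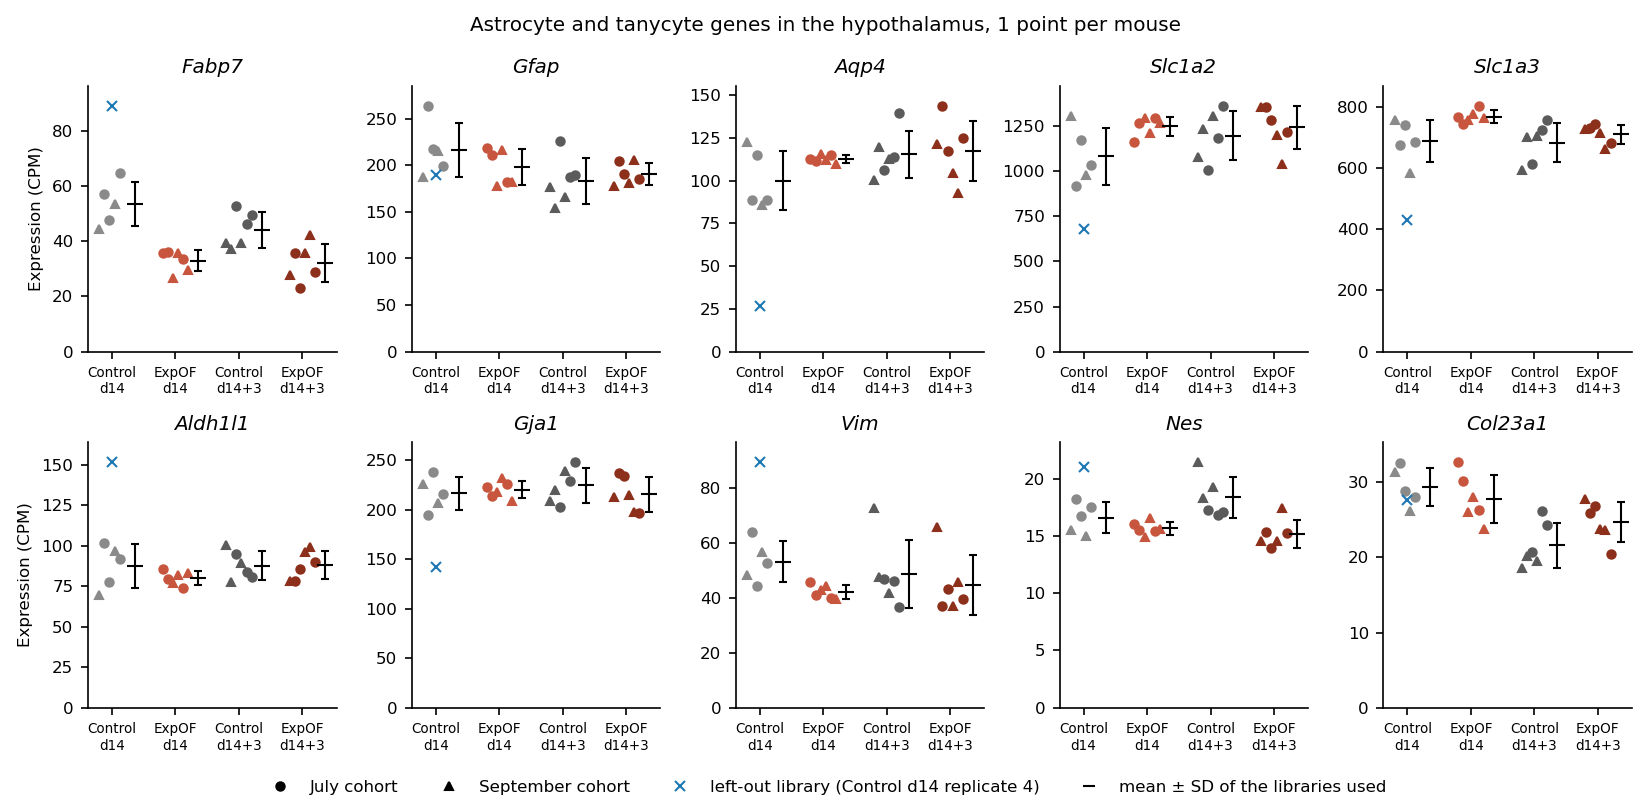
Expression in CPM of the 10 genes, 1 point per mouse (circles, July cohort; triangles, September cohort; bars, mean ± SD of the libraries used; cross, the left-out Control d14 replicate 4). Fabp7 separates ExpOF d14 (26.8 to 36.1 CPM) from Control d14 (44.6 to 64.6 CPM), while the groups of the other 9 genes overlap on both days.

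At the end of overfeeding, Fabp7 was lower in every ExpOF mouse than in any Control mouse. The Control d14 mice measured 44.6, 57.1, 47.7, 53.3 and 64.6 CPM and the ExpOF d14 mice 35.8, 36.1, 26.8, 35.8, 33.6 and 29.7 CPM. The group means were 53.5 ± 7.90 (SD, n = 5) and 33.0 ± 3.88 CPM (SD, n = 6), a fitted log2 fold change of -0.70 (SE 0.129). This is the contrast that chose Fabp7, so nothing is read from its size. The value was -0.68 in July and -0.67 in September, -0.55 when each library's trend with gene length was removed, and -0.83 with the left-out library included. Groups that do not overlap, with ExpOF lower, were found for 0.958% of all genes and for Fabp7 alone of the 10, and groups with ExpOF higher throughout for 1.54% of all genes and 0 of the 10.

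After 3 days of recovery, in other mice, the mean of Fabp7 was again lower after overfeeding, but no gene passed the threshold on that day and the groups overlapped. The Control d14+3 mice measured 39.2, 37.3, 52.9, 39.2, 46.1 and 49.5 CPM and the ExpOF d14+3 mice 27.9, 35.6, 23.1, 35.8, 42.1 and 28.8 CPM. Of the 6 ExpOF mice, 5 lay below every Control mouse, and the remaining 1, replicate 5 at 42.1 CPM, lay above 3 of them. The means were 44.0 ± 6.40 and 32.2 ± 6.86 CPM (SD, n = 6 each), a log2 fold change of -0.45 (SE 0.124). By edgeR's quasi-likelihood test the unadjusted p was 0.00133 and the Benjamini-Hochberg adjusted p over all genes 0.333, and a two-sided exact permutation test of log2 CPM gave p = 0.0173. Across the table, 0 of 18992 genes (0%) passed an adjusted p of 0.05 by edgeR, 1350 had an unadjusted p under 0.05, and DESeq2 called 42 genes, with Fabp7 at an adjusted p of 0.098. Among all genes, 2.98% had a log2 fold change as low as that of Fabp7 or lower.

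The d14+3 difference of Fabp7 was larger in the July mice than in the September mice. In July the 3 Control mice averaged 49.5 ± 3.40 and the 3 ExpOF mice 29.2 ± 6.26 CPM without overlap, a log2 fold change of -0.76. Groups without overlap arise more easily with 3 mice each than with 6, and their share over all genes in July was not counted. In September the averages were 38.6 ± 1.14 and 35.3 ± 7.10 CPM with overlap, a log2 fold change of -0.14. The difference between the cohorts was -0.63 (SE 0.216) with an unadjusted p of 0.00825 and an adjusted p of 0.985 in edgeR, so it did not pass over all genes. Of the 10 genes Fabp7 alone had an unadjusted p under 0.05 in that interaction, against 3.39% of all genes. The interaction was chosen after seeing the data, so its p-values are a description and not a test. The September controls were lower than the July controls on d14+3, while the ExpOF mice of the cohorts overlapped, at 23.1 to 35.6 CPM in July and 27.9 to 42.1 CPM in September.

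**Figure D2:**
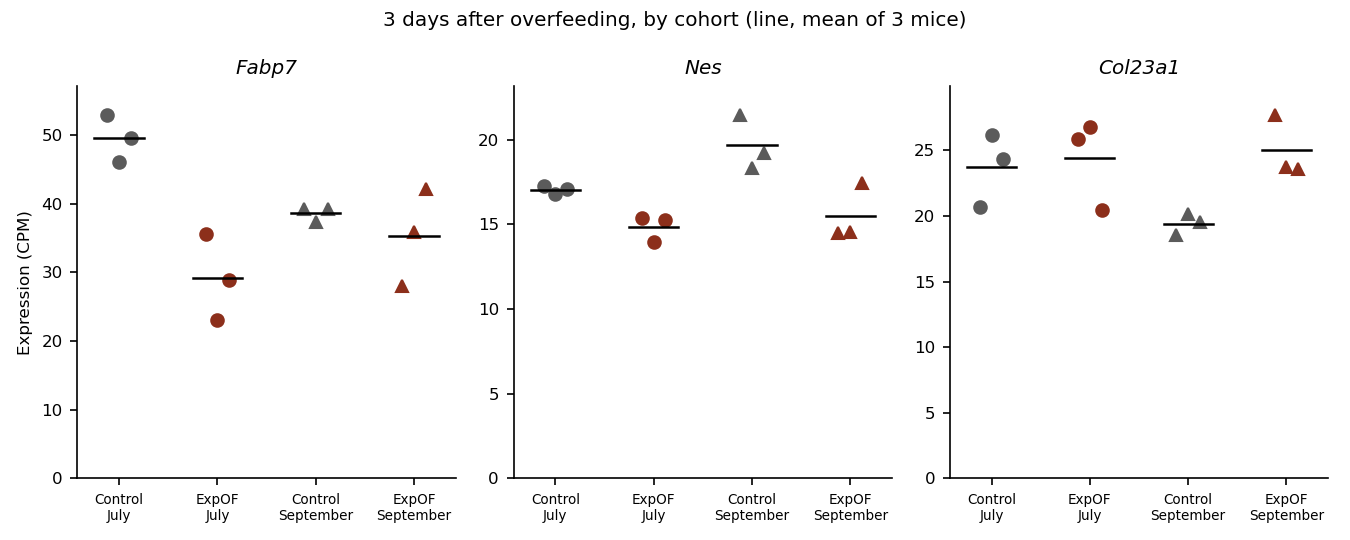
Expression in CPM of Fabp7, Nes and Col23a1 in the d14+3 mice, split by cohort (points, single mice; lines, means of 3 mice). For Fabp7 the Control and ExpOF means are 49.5 and 29.2 CPM in July and 38.6 and 35.3 CPM in September. The mean of Nes is lower in ExpOF in both cohorts.

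Among the intermediate filament genes, Nes, the filament of progenitors and of tanycytes, had the smallest p-value of the 10 genes on d14+3. Its Control d14+3 mice measured 21.5, 18.3, 17.2, 19.2, 16.8 and 17.1 CPM and its ExpOF d14+3 mice 14.5, 15.4, 14.0, 14.5, 17.4 and 15.3 CPM. Again 5 of 6 ExpOF mice lay below every Control mouse, and ExpOF replicate 5 was once more the mouse that did not. The means of 18.4 ± 1.77 and 15.2 ± 1.23 CPM (SD, n = 6 each) gave a log2 fold change of -0.28 (SE 0.069), with an unadjusted p of 0.00054 and an adjusted p of 0.256 in edgeR. The two-sided exact permutation test gave p = 0.00866, and DESeq2 gave an adjusted p of 0.0453, its only call among the 10 genes. Over all genes, DESeq2 called 42 of the 17135 to which it gave an adjusted p, and edgeR called 0 of 18992. Nes was lower in both cohorts, by -0.20 in July and -0.35 in September on the log2 scale, and the difference between the cohorts was 0.15 (SE 0.124). On d14 the Nes groups overlapped, at 15.5, 18.2, 16.7, 15 and 17.5 CPM in Control and 16.0, 15.5, 14.9, 16.6, 15.4 and 15.6 CPM in ExpOF, with a log2 fold change of -0.08 (SE 0.073).

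Vim, the vimentin filament of tanycytes, reactive astrocytes and vessels, differed more between the means on d14 than on d14+3, and the difference between the days was not tested. On d14 the Control mice measured 48.4, 64.0, 44.5, 56.7 and 52.8 CPM and the ExpOF mice 46.1, 41.3, 42.8, 44.5, 39.9 and 39.8 CPM, with 5 of 6 ExpOF mice below every Control mouse and a log2 fold change of -0.33 (SE 0.147). On d14+3 the Control mice measured 72.8, 47.5, 46.8, 42.0, 46.3 and 36.8 CPM and the ExpOF mice 66.0, 37.1, 43.2, 37.2, 45.7 and 39.6 CPM. The groups overlapped fully, 1 mouse in each (replicate 1 in both) lay far above the rest, and the log2 fold change was -0.12 (SE 0.140, adjusted p = 0.815 in edgeR, exact permutation p = 0.511). Without Control d14+3 replicate 1 it was 0.03, and without ExpOF d14+3 replicate 1 it was -0.27 (unadjusted p = 0.0399, adjusted p = 0.736 in edgeR).

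Gfap, the filament of mature and reactive astrocytes and of dorsal tanycytes, differed little on either day. On d14 the Control mice measured 187.5, 263.9, 217.1, 215.5 and 198.7 CPM and the ExpOF mice 218.6, 211.4, 177.3, 216.3, 181.8 and 181.6 CPM, a log2 fold change of -0.13 (SE 0.090). On d14+3 the Control mice measured 177.0, 154.6, 226.2, 166.4, 187.8 and 189.1 CPM and the ExpOF mice 177.7, 204.7, 190.1, 181.2, 205.3 and 184.7 CPM. The highest and the lowest values both belonged to Control mice, and the log2 fold change of 0.05 (SE 0.086) had an adjusted p of 0.861 in edgeR and an exact permutation p of 0.481.

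Of the transport and junction genes, Aqp4 was lowest in 3 of the 5 Control mice on d14. These mice measured 122.7, 88.9, 114.9, 85.6 and 88.6 CPM, and the ExpOF d14 mice lay tightly between 109.9 and 115.5 CPM, inside the Control range, with a log2 fold change of 0.17 (SE 0.103). On d14+3 the Control mice measured 100.3, 119.9, 106.1, 112.9, 114.0 and 140.0 CPM and the ExpOF mice 121.4, 144.0, 117.3, 104.5, 93.0 and 125.0 CPM. The groups overlapped and the log2 fold change was 0.03 (SE 0.097, adjusted p = 0.95 in edgeR). Slc1a2 was at 1084 ± 157 (SD, n = 5) and 1250 ± 51.6 CPM (SD, n = 6) in Control and ExpOF d14, and at 1198 ± 136 and 1244 ± 120 CPM (SD, n = 6 each) on d14+3. Slc1a3 was at 687 ± 68.3 and 767 ± 20.7 CPM on d14, where 4 of 6 ExpOF mice exceeded every Control mouse, and at 682 ± 64.4 and 709 ± 31.7 CPM on d14+3. Gja1 ranged from 195 to 248 CPM over all 4 groups, with log2 fold changes of 0.02 on d14 and -0.06 on d14+3, and Aldh1l1 ranged from 69.3 to 102 CPM, with -0.12 and 0.00. On d14+3 the approximate 95% intervals of the log2 fold change were -0.11 to 0.21 for Slc1a2, -0.06 to 0.18 for Slc1a3, -0.18 to 0.06 for Gja1 and -0.16 to 0.17 for Aldh1l1, so larger changes of these 4 genes fall outside them.

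Col23a1 was the only one of the 10 genes with an unadjusted p under 0.05 in edgeR toward higher values after overfeeding on d14+3. On d14+3 the Control mice measured 18.6, 20.2, 20.7, 19.5, 26.2 and 24.3 CPM and the ExpOF mice 27.7, 25.9, 26.8, 23.8, 23.6 and 20.5 CPM. The groups overlapped, with 2 ExpOF mice above every Control mouse. The log2 fold change was 0.20 (SE 0.092), with an unadjusted p of 0.0414 and an adjusted p of 0.696 in edgeR and an exact permutation p of 0.0887. It was 0.05 in July and 0.36 in September. On d14 both groups had higher means than either d14+3 group, with single mice at 31.3, 32.5, 28.7, 26.1 and 28.0 CPM in Control and 32.7, 30.1, 25.9, 28.0, 26.3 and 23.7 CPM in ExpOF, and the log2 fold change was -0.07 (SE 0.095). The difference between the days was not tested.

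Over the 10 genes, then, 2 had an unadjusted p under 0.05 with ExpOF lower on d14+3 (Fabp7 and Nes) and 1 with ExpOF higher (Col23a1), where 4.2% and 2.91% of all genes did, and groups without overlap were seen in 0 of the 10 and in 0.421% of all genes. The median log2 fold change of the 10 was 0.01 on d14+3 and -0.08 on d14, beside 0.01 and -0.02 for all genes. Because the 10 genes were chosen with earlier results of these data known, these shares are a description and not a test of the group.

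**Figure D3:**
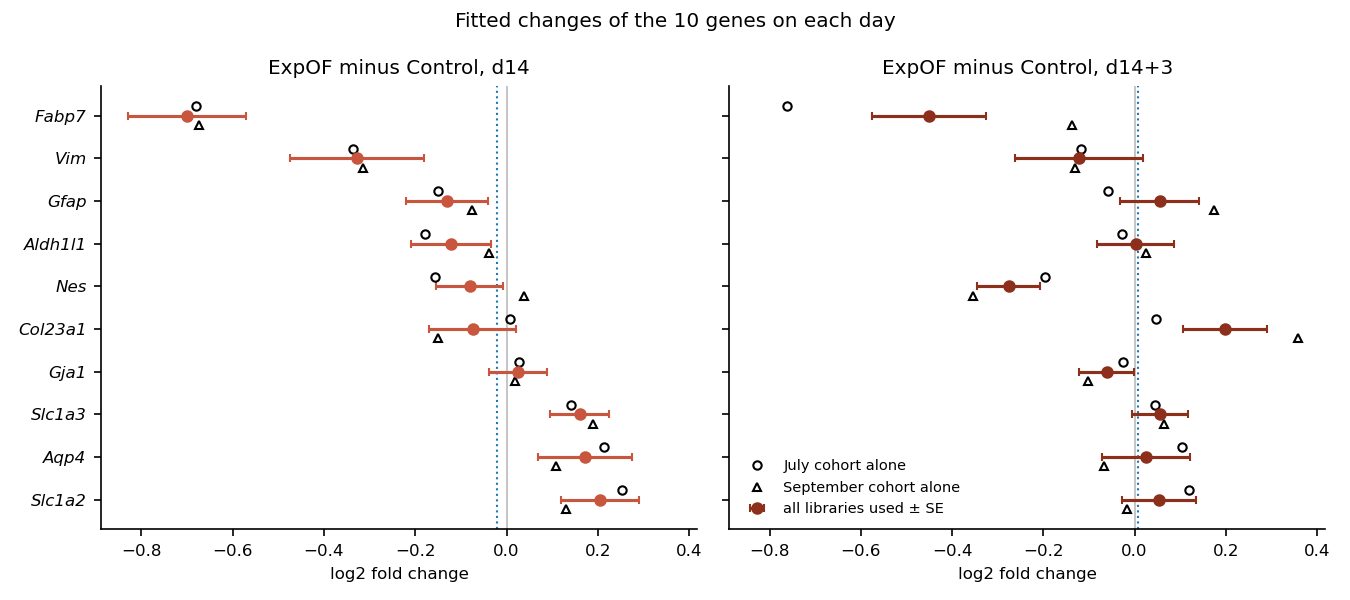
Log2 fold change (ExpOF minus Control) of each gene on d14 and d14+3, as fitted over the 23 libraries (filled points, ± SE) and in each cohort alone (open symbols); the dotted line is the median of all genes. Fabp7 lies lowest on both days (-0.70 and -0.45), Nes lies at -0.08 on d14 and -0.28 on d14+3, and the cohorts part most for Fabp7 on d14+3 (-0.76 and -0.14).

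Gene length moved with these values. With all genes split into equal bins by exonic length, the median log2 fold change on d14 ran from -0.20 in the shortest bin to 0.13 in the longest, and on d14+3 from -0.06 to 0.06. Fabp7 is the only one of the 10 in the shortest bin (up to 1869 bases), and Slc1a2, Slc1a3 and Gja1 are in the longest (at least 6869 bases). With the length trend of each library removed, the d14 change of Slc1a2 went from 0.21 to 0.02, that of Slc1a3 from 0.16 to 0.05 and that of Gja1 from 0.02 to -0.12. The value of Fabp7 went from -0.70 to -0.55 on d14 and from -0.45 to -0.41 on d14+3, and that of Nes from -0.28 to -0.31 on d14+3. Short, abundant ribosomal protein transcripts were also lower, 79 of 79 on d14 (median -0.35) and 77 of 79 on d14+3 (median -0.40), and their part in the values of Fabp7 was not tested.

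**Figure D4:**
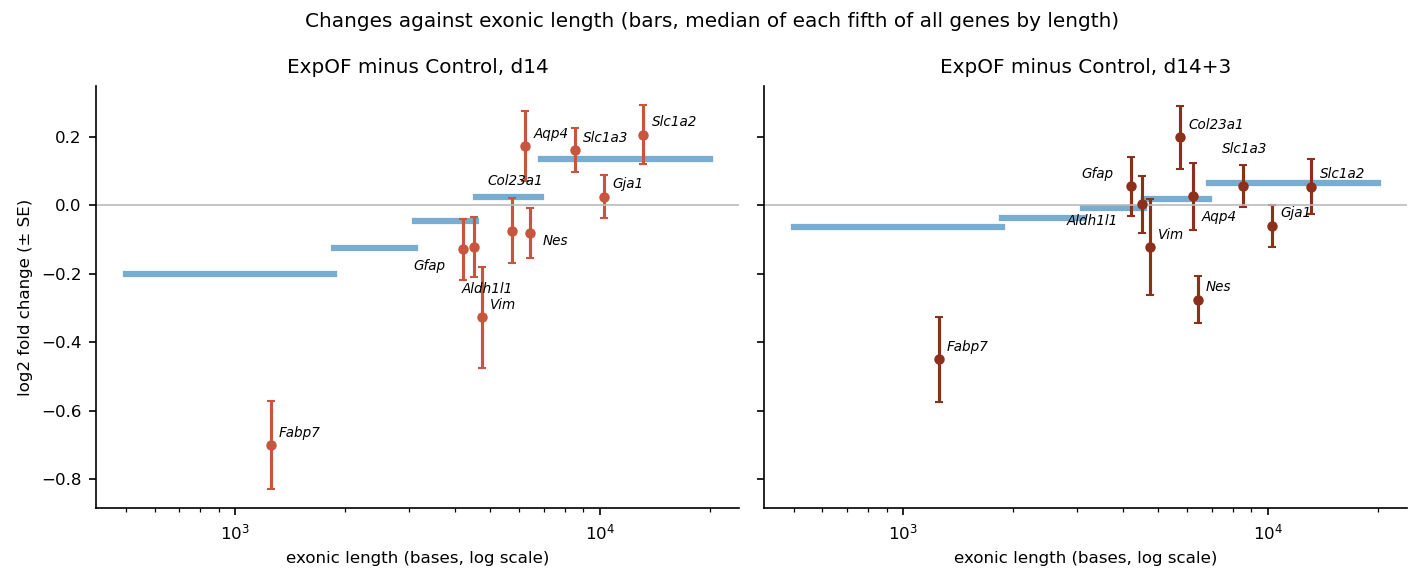
Log2 fold change (± SE) of the 10 genes against exonic length on a log axis, with the median of each equal bin of all genes by length as a bar (outer bars cut at the edges of the axis range). Fabp7, with 1250 exonic bases, lies below the bar of its bin on both days (-0.70 against -0.20 and -0.45 against -0.06). Its d14 place is a description only, since Fabp7 was chosen on d14. The bar of the longest bin lies at 0.13 on d14 and 0.06 on d14+3. In that bin Slc1a2 lies at 0.21 and 0.05, Slc1a3 at 0.16 and 0.06, and Gja1 at 0.02 and -0.06.

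Within the groups, Gfap had the highest correlation to Fabp7 of the other 9 genes in the 23 libraries, but with the left-out library included Aldh1l1 did (r = 0.65, against 0.35 for Gfap). After removal of the group means, the log2 CPM of Fabp7 over the 23 libraries had a Pearson r of 0.59 (Spearman 0.64) with Gfap, 0.42 (0.43) with Aldh1l1 and 0.28 (0.25) with Nes. It had -0.14 (-0.12) with Vim, 0.17 (0.21) with Col23a1, -0.35 (-0.38) with Aqp4 and -0.51 (-0.47) with Slc1a2. Without the 2 libraries farthest from the median of each gene, r was 0.57 with Gfap, 0.30 with Aldh1l1 and -0.34 with Slc1a2. Of all genes, 4.78% had an r with Fabp7 as high as that of Gfap. These are descriptions over libraries that share their depth and RNA quality, and no p is given. With the length trend removed, r was 0.51 with Gfap, and that with Slc1a2, Slc1a3 and Gja1 turned from -0.51, -0.23 and -0.21 to 0.20, 0.42 and 0.47. The long transporter genes varied together, with r of 0.85 between Aqp4 and Slc1a2 and 0.77 between Slc1a2 and Slc1a3, and against Aldh1l1, with r of -0.88 for Slc1a2. With the length trend removed, these were 0.58, 0.32 and -0.41, and r with Aldh1l1 went from -0.74 to -0.11 for Slc1a3 and from -0.64 to 0.30 for Gja1.

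The mean of 30 further astrocyte genes had r of 0.70 (0.58 without the 2 farthest libraries) with Fabp7, that of 79 ribosomal protein genes 0.65 (0.54), that of 9 oligodendrocyte genes 0.55 (0.49), and that of 16 further tanycyte genes 0.03. It was -0.54 for 20 genes of astrocyte reactivity, -0.57 for 9 endothelial genes, 0.19 for 10 neuron genes and 0.04 for RIN. With the length trend removed, r was 0.56 for the astrocyte list, 0.55 for the ribosomal protein genes, 0.50 for the oligodendrocyte list, 0.31 for the tanycyte list and 0.52 for the neuron list. In the tanycyte list Col25a1 is the most abundant gene and Rax the least abundant.

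**Figure D5:**
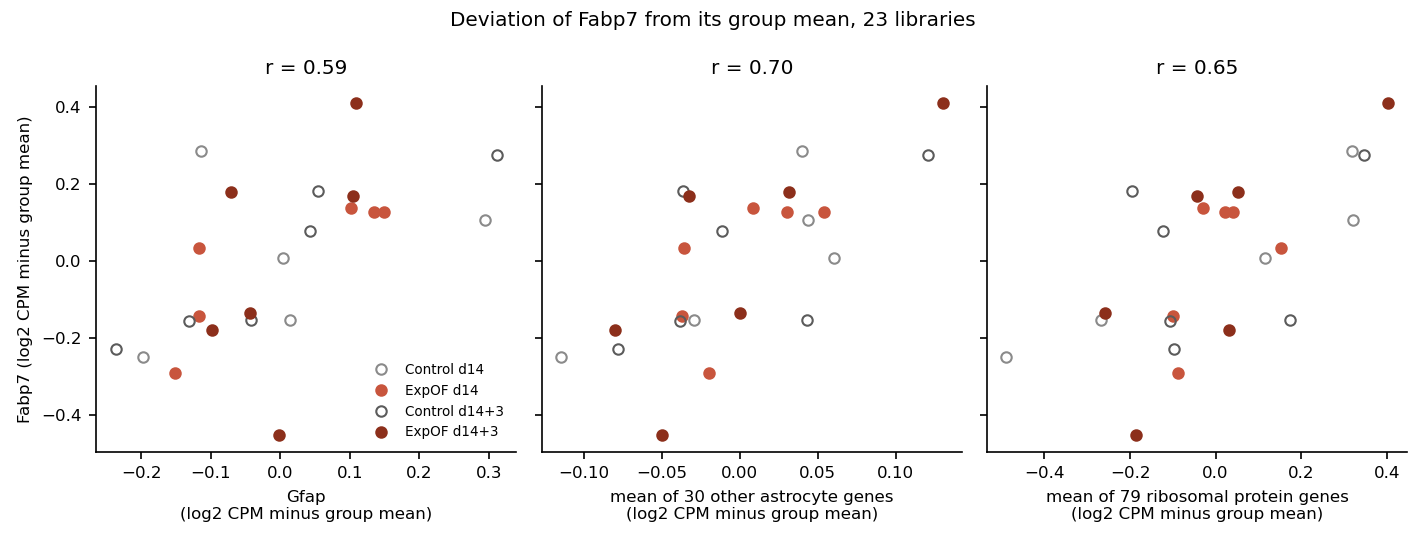
Deviation of Fabp7 from its group mean (log2 CPM) in the 23 libraries against that of Gfap, of the mean of 30 other astrocyte genes and of the mean of 79 ribosomal protein genes, coloured by group. Fabp7 tended to be higher in the libraries where each of the others was higher within its group (r = 0.59, 0.70 and 0.65).

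Among 13244 protein-coding genes with at least 50 counts on average, the 10 whose within-group pattern was most like that of Fabp7 were Id2, Rnaseh1, Lypd6b, Dph7, Trmt6, Fabp5, Fdft1, Tab1, Nipsnap3b and Ercc8, with r from 0.83 to 0.75. Id2 (an inhibitor of basic helix-loop-helix factors) had r of 0.83, and Fabp5, the epidermal fatty acid binding protein of the same family, had r of 0.80 (0.74 without the 2 farthest libraries, 0.73 with the length trend removed). None of the other 9 described genes was among the 10.

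Fabp5 was also the relative of Fabp7 with the smallest p-value on d14+3. Of 14 further genes of the intracellular lipid binding family, 7 passed the expression filter, and all 7 had negative log2 fold changes on d14+3 (median -0.14, beside 0.01 for all genes), although only Fabp5 had an unadjusted p under 0.05. Fabp5 was at 80.4 ± 8.29 in Control and 66.8 ± 9.48 CPM in ExpOF mice (SD, n = 6 each), a log2 fold change of -0.27 (SE 0.096, unadjusted p = 0.00983, adjusted p = 0.526 in edgeR). Rbp7, the next by p-value, averaged 0.515 CPM in Control and 0.357 CPM in ExpOF mice (unadjusted p = 0.211). In the wider list of 18 genes of glial fatty acid uptake, desaturation and oxidation, 11 were higher and 7 lower, with a median of 0.02, and Fads2, the delta-6 desaturase, had the smallest p-value (-0.10, SE 0.044, unadjusted p = 0.0295, adjusted p = 0.651). Cpt1a, which admits long-chain fatty acids to mitochondria, came next at 0.12 (unadjusted p = 0.133).

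Other glial lists gave no gene past the adjusted threshold on d14+3 in edgeR, where 0 of all 18992 genes passed it and 9895 were positive. Of the 30 further astrocyte genes, 21 had negative and 9 positive log2 fold changes (median -0.03), led by Mt3, a metallothionein (-0.52, SE 0.162, unadjusted p = 0.0037), and Hepacam, an endfoot adhesion protein (-0.12, unadjusted p = 0.0167). The 16 further tanycyte genes had a median of 0.05, with Trhde, which degrades TRH, at 0.27 (unadjusted p = 0.0501). Of 11 ependymal genes, 9 were negative (median -0.19), led by the cilium genes Ccdc153 (-0.40, unadjusted p = 0.00317) and Foxj1 (-0.25, unadjusted p = 0.0154). Of 20 reactivity genes, 13 were positive (median 0.04), led by Serpina3n (0.28, unadjusted p = 0.00613) and Lcn2 (2.11, SE 0.899, unadjusted p = 0.0292). Lcn2 averaged only 1.171 ± 0.771 CPM in Control d14+3 and 4.985 ± 5.895 CPM in ExpOF d14+3 (SD). Its log2 fold change on d14 was -1.36. Among 17 Notch and radial glia regulators, 8 were positive, and the Notch target Hes5 (-0.33, unadjusted p = 0.022) and the receptor Notch3 (-0.18, unadjusted p = 0.039) had the smallest p-values. Among 15 clock genes, 9 were positive, with Bhlhe41 at -0.22 (unadjusted p = 0.00469) and Per2 at 0.25 (unadjusted p = 0.0076).

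Of the markers of other cells on d14+3, 5 of 10 neuron genes were positive (smallest p for Rbfox3, -0.09, and Slc32a1, -0.08), as were 2 of 9 oligodendrocyte genes (Mog, -0.16, and Cnp, -0.17), 4 of 6 oligodendrocyte precursor genes (Cspg4, 0.11, and Pdgfra, 0.11) and 7 of 8 microglia genes (Csf1r, 0.09). None of the genes of these 4 lists had an unadjusted p under 0.05 in edgeR. Of all 18992 genes 4.2% had one with ExpOF lower and 2.91% with ExpOF higher, and 9895 were positive. Among vessel genes, 7 of 9 endothelial genes were positive, with Vwf at 0.56 (unadjusted p = 0.0435) and Cldn5 at -0.32 (unadjusted p = 0.0499), and 4 of 7 mural genes were positive (Abcc9, 0.27, and Vtn, -0.15). Of the neighbouring tissues, 8 of 9 choroid plexus genes were positive (Ttr, 4.11, SE 1.82, unadjusted p = 0.0356, and Slc4a5, 2.16), 4 of 13 leptomeningeal genes were positive (Ptgds, -0.23, and Col1a1, -0.59), and both pituitary genes were negative (Gh, -1.81, and Tshb, -0.03). Ttr averaged 208.8 ± 488 CPM in ExpOF d14+3 (SD, n = 6), and the sum of the choroid plexus list had a median of 96.6 and a maximum of 1366 CPM there, against 94.2 and 111.1 CPM in Control d14+3. The part of these lists in the values of Fabp7 and Nes was not tested.

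Between the cohorts, with group in the model, Fabp7 was at 42.6 ± 12.3 CPM in July (SD, n = 12) and 37.4 ± 7.75 CPM in September (SD, n = 11), a log2 difference of 0.12 (SE 0.089, unadjusted p = 0.183, adjusted p = 1 in edgeR). Of the 10 genes, Gfap (0.14, SE 0.057, unadjusted p = 0.019) and Col23a1 (0.13, SE 0.062, unadjusted p = 0.0476) had an unadjusted p under 0.05, against 3.88% of all genes. Both were higher in July, and 0 of 18992 genes passed the adjusted threshold in edgeR, with 736 at an unadjusted p under 0.05 and 0 calls in DESeq2. The choroid plexus and leptomeningeal lists had median July minus September differences of -0.91 and -0.56.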

How the data were processed

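Hypothalamic poly-A RNA of 24 mice was sequenced in stranded libraries. The authors aligned the reads with STAR to mm10 and counted them per gene with featureCounts 1.6.4, and the deposited values are raw counts per gene without normalization, beside each gene's exonic length. The strand setting is not given in the sources used here. Reads were not on hand, so alignment and counting were not repeated. Symbols came from a table of gene identifiers and matched 55144 of 55471 genes, and overlaps between genes came from GENCODE vM21. The 10 genes and all gene lists were chosen with earlier results of these data known. Ribosomal protein genes were taken by symbol.

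Control d14 replicate 4 was left out and the 4 groups were fitted together with edgeR 4.0.16 under R 4.3.3 (TMM factors, genes kept by filterByExpr at 10 counts and 15 in total, robust quasi-likelihood F-test, Benjamini-Hochberg adjustment, threshold 0.05). CPM are counts scaled with TMM factors, and RPKM are CPM per kilobase of exon. Log2 CPM carry a prior count of 2, and log2 fold changes are ExpOF minus Control. The fit for cohort added cohort to group. Exact permutation tests (two-sided, 924 regroupings of 6 against 6, smallest p 0.0022) used SciPy 1.17.1. The scripts were tested on simulated data.

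Values per library were given for Fabp7, Gfap, Vim, Nes, Aqp4 and Col23a1 by a set rule, and from each list the 2 genes with the smallest p on d14+3 were named, apart from 2 genes that are not reported here. Alternatives were DESeq2 1.42.0, its size factors, 2 other count filters, all 24 libraries, RIN, cohort and extraction round as covariates, removal of length trends (spline with 5 degrees of freedom), the 2 groups alone, each cohort alone, a replicate block, and each library left out. Correlations were repeated with DESeq2 size factors, with all 24 libraries, without removal of group means and with the length trend removed. Chosen after seeing the data were RIN with the length trend, controls with RIN under 8 left out, and the diet-by-cohort interaction. The closest of 55 within-group pairs differed by more than sampling noise (chi-square per degree of freedom 2.83), so none was a duplicate. Columns of other samples numbered 0.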

Additional observations from a re-analysis of the deposited data

Results flagged for a closer look

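Each of the 40 sets of 1 gene in 1 group was examined for a mouse whose gap to its nearest neighbour was wide relative to the range of its group, a rule by which chance alone marks about 1 group in 20. It marked 2, both for Vim: Control d14+3 replicate 1 at 72.8 CPM and ExpOF d14+3 replicate 1 at 66.0 CPM, with gap ratios of 0.702 and 0.702. Both mice are of the September cohort and of the first extraction round.

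The effect of overfeeding on Fabp7 on d14+3 differed between the cohorts at the unadjusted level, with a July minus September log2 fold change of -0.63 (SE 0.216, unadjusted p = 0.00825, adjusted p = 0.985 in edgeR). All 3 July ExpOF mice lay below the 3 July controls, and 1 of the 3 September ExpOF mice lay above all September controls. The share of all genes with July groups that do not overlap was not counted. The comparison of the cohorts was chosen after seeing the data, so its p-value is a description and not a test.

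The library left out, Control d14 replicate 4, lay above all 11 other Control libraries in 3 of the 10 genes: Fabp7 at 89.2 CPM, Aldh1l1 at 151.6 CPM and Vim at 89.7 CPM. It lay below all 11 in 4 of them: Aqp4 at 26.8 CPM, Slc1a2 at 683.1 CPM, Slc1a3 at 428.8 CPM and Gja1 at 141.9 CPM. In the same library the ribosomal protein genes summed to 45760 CPM, against 8174 to 14350 CPM in the rest of its group, and the choroid plexus genes to 4603 CPM. The part of these in its Fabp7 level was not tested.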

How the results depend on the processing

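Fabp7 kept its direction and stayed outside the adjusted threshold on d14+3 under all 14 alternatives (-0.76 to -0.14, adjusted p from 0.098 to 0.9999) and without each library (-0.54 to -0.37), and its d14 value ranged from -0.83 to -0.55. The count of genes called on d14+3 was 42 with DESeq2, 26 with RIN as a covariate, 19 with RIN and the length trend removed, 1 without the controls of RIN under 8, and 0 under every other alternative and without each library. For the cohorts it was 0 to 1 without each library, 1 only without ExpOF d14+3 replicate 6. Of the other 9 genes, 2 had an unadjusted p under 0.05 on d14+3, but 1 with all 24 libraries, with the replicate block or with the 2 groups alone, 0 in July alone, 3 without the controls of RIN under 8, and 1 to 2 without each library. Without the controls of RIN under 8, 3290 of 19605 genes had an unadjusted p under 0.05, against 1350 of 18992 in the main fit. The count of 3 thus came with a rise over all genes and is not read as a result about these genes. Counts over all genes are not given here for the other settings. Col23a1 was above that threshold without any one of ExpOF replicates 1 to 3 or Control replicates 1 to 4 of d14+3, and Vim was under it without ExpOF d14+3 replicate 1. The cause was not tested. Nes passed with DESeq2 (-0.28, adjusted p = 0.0453).

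Small d14+3 changes turned sign. Gfap was -0.0571 in July. Aqp4 was -0.0045 with the length trend removed, -0.0678 in September and -0.0383 to 0.0872 without each library. Slc1a2 was -0.0252 with the length trend removed, -0.0143 with RIN besides and -0.0169 in September. Gja1 was 0.0287 without the controls of RIN under 8. Vim was -0.267 to 0.0311 without each library, positive without Control d14+3 replicate 1. Aldh1l1 was -0.002536 with the filter of 1 count in all, -0.0044 with 24 libraries, -0.0236 with RIN, -0.00264 with the length trend removed, -0.002016 with the replicate block, -0.001626 with cohort and round, -0.027 in July, -0.0515 without the controls of RIN under 8, -0.02865 with RIN and length, and -0.0326 to 0.0477 without each library.

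Same-numbered mice did not deviate together: in 2 of 11 pairs the correlation of deviations was over 0.1. Same-numbered mice were not always of the same cohort, so the numbers do not mark pairs. With replicate number as a block over all 4 groups, the value of Fabp7 on d14+3 was -0.47 (adjusted p = 0.545 in edgeR). No gene was called on d14+3 in that fit. With all 24 libraries, r between Fabp7 and Gfap was 0.35 in place of 0.59, and 31.2% of genes had one as high.

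The lowest count of any of the 10 genes in a used library was 137 (Nes). The contrast of the d14+3 diet effect on Fabp7 between cohorts rests on 3 mice per group in each cohort.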
